A study of Mus musculus with 11 samples.

Results

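Epas1 and 9 other genes of the hypoxia-inducible factor (HIF) pathway were examined in 11 RNA sequencing libraries of mouse melanoma model tumours. The 10 genes (Epas1, Hif1a, Hif3a, Arnt, Arnt2, Egln1, Egln2, Egln3, Vhl and Vegfa) were taken by symbol from a deposited table of 18756 mouse genes. They were selected on measured values of these same libraries, because Epas1 is several-fold lower in tumours with GNA11 Q209L and loss of Bap1 than in those with GNA11 Q209L alone. That comparison is therefore described without a test for any of the 10 genes, and Epas1 is tested nowhere, since the other comparisons share one of the groups that chose it.

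The tumours were taken from the skin of engineered C57BL/6 mice at their end point. They carried an activated GNA11 (GNA11 Q209L, 2 libraries), the same with loss of Bap1 (GNA11 Q209L Bap1 KO, here GNA11-Bap1KO, 5 libraries), or an activated BRAF with loss of Bap1 (BRAF V600E Bap1 KO, here BRAF-Bap1KO, 4 libraries). GNA11 encodes the alpha subunit of a G protein, BRAF a kinase of the MAP kinase cascade, and Bap1 a nuclear deubiquitinase. No wild-type tissue and no BRAF V600E tumour with intact Bap1 was analysed here, so the oncogene and Bap1 differ together between GNA11 Q209L and BRAF-Bap1KO. The labels and table name the Bap1 state as BAP1 F/F or WT, but no promoter, Cre driver, age, sex or batch. GNA11-Bap1KO replicates 1 and 2 share an identifier in their titles, so they may come from the same animal. Replicates are otherwise not stated to come from separate animals. The libraries may thus not be independent, though each is counted in n, and the spread between them may be partly technical.

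HIF transcription factors are pairs of an alpha and a beta subunit. The alpha subunits are Hif1a, Epas1 (also called HIF2A) and Hif3a, and the beta subunits are Arnt and Arnt2. With oxygen present, the prolyl hydroxylases Egln1, Egln2 and Egln3 mark the alpha subunit and the Vhl ubiquitin ligase has it degraded. When oxygen falls the pair binds DNA at a short core sequence and switches on genes such as Vegfa. Oxygen control acts mainly on the alpha protein, so transcript levels of the alpha subunits do not report HIF activity. Epas1 is known for its high expression in endothelial cells.

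Total counts ran from 18338082 to 81035135 per library, and a count of 3 corresponded to between 0.037 and 0.164 CPM (counts scaled to a common library size). Levels are given as CPM scaled by trimmed mean of M-values (TMM). All 10 genes were among the 17350 that passed the filter on low counts, Hif3a only through its level in the BRAF-Bap1KO libraries. Bap1 itself was measured at 85.1 and 137 CPM in GNA11 Q209L, from 102 to 170 CPM in GNA11-Bap1KO and from 54.7 to 71.3 CPM in BRAF-Bap1KO. A count over the whole gene does not isolate deleted exons and so does not check the Bap1 label. A line at the foot of the deposited table gives no Bap1 genotype for BRAF-Bap1KO replicates 2 and 4. Calls were therefore also made without both. The 8 melanocyte markers (Pmel, Tyr, Tyrp1, Dct, Mlana, Mitf, Slc45a2 and Oca2) summed to between 65946 and 100066 CPM in the 7 GNA11 Q209L libraries with or without Bap1. All 8 were also detected in the 4 BRAF-Bap1KO libraries but summed to only 48.8 to 188 CPM. Every comparison of GNA11 Q209L with BRAF V600E tumours below therefore also sets tumours with and without abundant pigment cell transcripts against each other, and these cannot be told apart. BRAF-Bap1KO replicate 4 stood apart with 147078 CPM of 6 salivary gland markers, against at most 6066 CPM in any other library.

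The promoters of the 4 members with the largest tested differences between tumour genotypes were searched for the core of the HIF binding site. Each sequence covers the 250 bases before the transcript start in RefSeq on GRCm38.p6, read 5′ to 3′ on the gene's strand. They are shown because Hif1a, Hif3a and Egln1 had an adjusted p under 0.05 in a comparison below and Egln3 separated the groups. Capitals mark ACGTG and GCGTG on either strand, the opposite strand reading as CACGT and CACGC.

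Hif1a: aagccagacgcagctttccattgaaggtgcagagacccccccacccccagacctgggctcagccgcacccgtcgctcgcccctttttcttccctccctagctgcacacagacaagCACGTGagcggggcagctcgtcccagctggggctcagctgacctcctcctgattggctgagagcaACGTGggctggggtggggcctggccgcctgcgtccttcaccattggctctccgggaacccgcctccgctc
Hif3a: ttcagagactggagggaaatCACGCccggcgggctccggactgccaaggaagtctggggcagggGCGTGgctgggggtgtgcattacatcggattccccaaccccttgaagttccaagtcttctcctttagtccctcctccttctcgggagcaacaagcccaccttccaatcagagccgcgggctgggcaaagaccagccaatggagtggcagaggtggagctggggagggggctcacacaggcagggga
Egln1: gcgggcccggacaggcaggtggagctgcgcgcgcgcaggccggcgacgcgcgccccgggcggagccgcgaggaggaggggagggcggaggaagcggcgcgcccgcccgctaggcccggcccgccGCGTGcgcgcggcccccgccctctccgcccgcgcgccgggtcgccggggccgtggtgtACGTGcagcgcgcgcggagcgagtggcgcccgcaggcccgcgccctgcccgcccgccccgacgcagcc
Egln3: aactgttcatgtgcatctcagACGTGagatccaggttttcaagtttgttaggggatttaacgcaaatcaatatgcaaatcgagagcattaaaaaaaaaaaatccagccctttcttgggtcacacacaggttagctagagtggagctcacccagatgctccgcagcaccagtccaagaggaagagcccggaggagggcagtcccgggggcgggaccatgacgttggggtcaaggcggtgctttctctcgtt

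The Hif1a window (chr12:73907617-73907866, plus strand) held 3 cores, of which the first 2 overlap as a palindrome 135 bases before the start. The Hif3a window (chr7:17062428-17062677, minus strand) held 2 cores, 230 and 186 bases before the start. The Egln1 window (chr8:124949255-124949504, minus strand) held 2, at 126 and 68 bases, and 86.0% of its bases were G or C. The Egln3 window (chr12:54203875-54204124, minus strand) held a single core 229 bases before the start. Windows were found for 9 of the 10 members, 11 windows in all, and 8 of the 11 held a core. Of all 32851 windows of that length in the RefSeq table, 38.6% held a core, so a match of these 5 letters is a common event and only a description of the sequence.

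Epas1 was the member by which the set was chosen, and its level set GNA11 Q209L apart from both Bap1 KO groups. In GNA11 Q209L the 2 libraries had 697 and 525 CPM. In GNA11-Bap1KO the 5 libraries had 131, 93.0, 73.4, 85.6 and 141 CPM. In BRAF-Bap1KO the 4 libraries had 32.4, 29.3, 104 and 157 CPM. Both GNA11 Q209L libraries lay more than 3-fold above every other library, and the 2 Bap1 KO groups overlapped. The means were 611 ± 122 CPM (SD, n = 2), 105 ± 29.6 CPM (SD, n = 5) and 80.7 ± 61.6 CPM (SD, n = 4). The mean of GNA11 Q209L was 5.83-fold that of GNA11-Bap1KO and 7.57-fold that of BRAF-Bap1KO. The fitted log2 difference of GNA11-Bap1KO from GNA11 Q209L was -2.54 ± 0.56 (SE), and its size ran from 2.33 to 2.73 when any 1 library of these groups was left out. Between the 2 Bap1 KO groups the fitted log2 difference was 0.38 ± 0.48 (SE), and their order is not separated by the spread.

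Within BRAF-Bap1KO, replicates 3 and 4 held more Epas1 (104 and 157 CPM) than replicates 1 and 2 (32.4 and 29.3 CPM). These were also the libraries with the most fibroblast marker transcript (18247 and 11875 CPM over 8 genes, against 3445 and 3138 CPM). They likewise held the most keratinocyte marker transcript (12663 and 3914 CPM, against 130 and 278 CPM). The sum of 12 endothelial markers was also highest there (386 and 349 CPM, against 214 and 280 CPM). Macrophage marker transcript was lowest there (783 and 1741 CPM, against 2626 and 2842 CPM). The part of these cells in the Epas1 values was not tested.

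**Figure D1:**
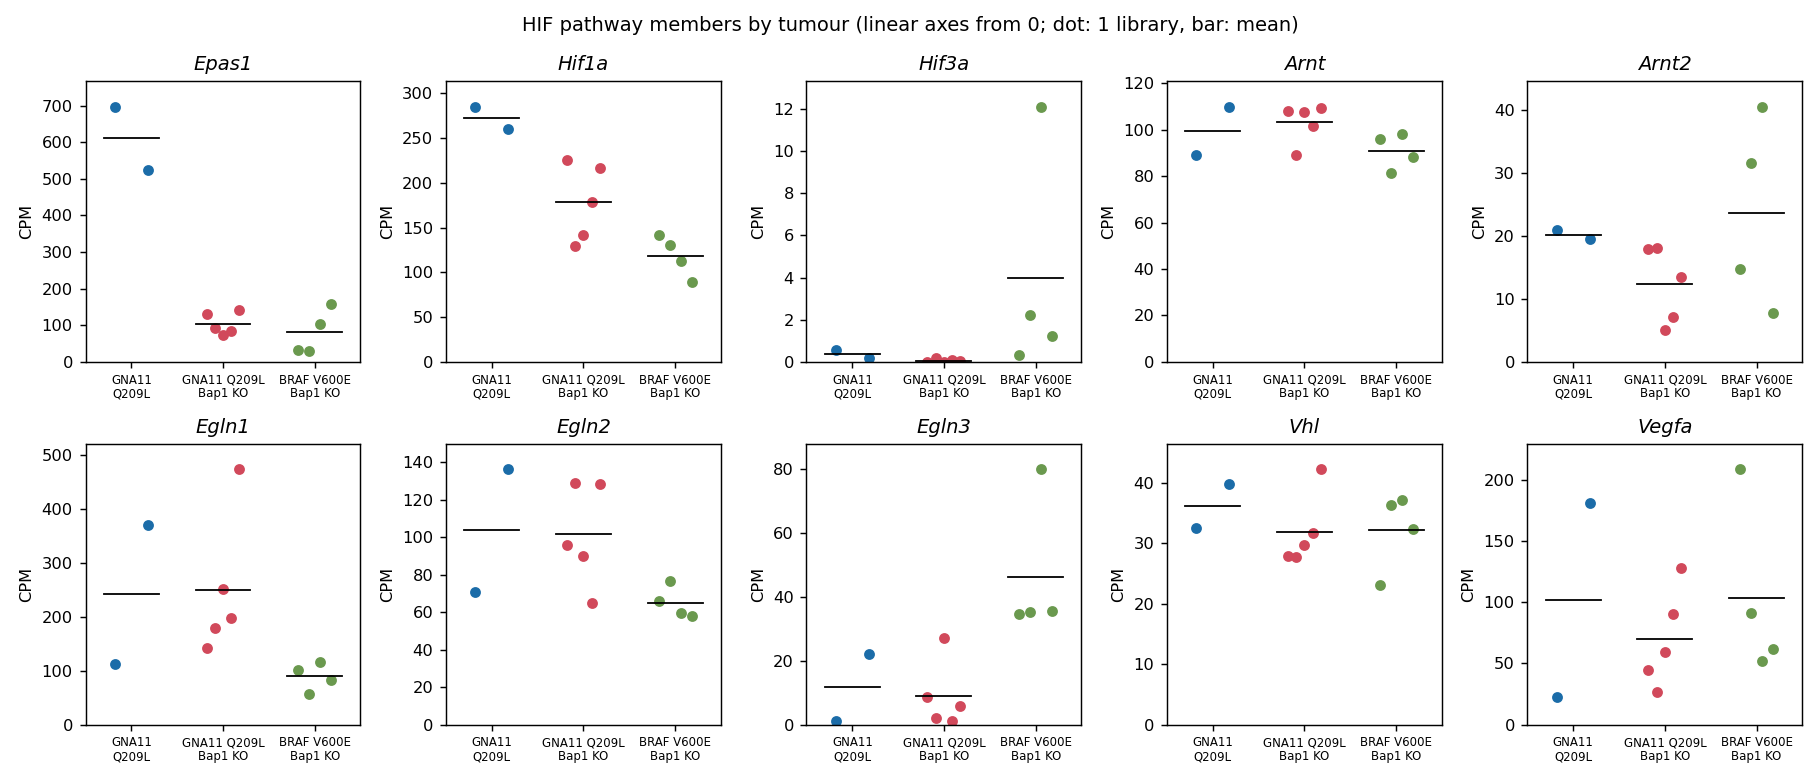
Level of each of the 10 HIF pathway members in every library, in CPM on linear axes that start at 0, by genotype on the horizontal axis (2, 5 and 4 libraries). Each dot is a library and each bar a group mean. Epas1 stands at 525 and 697 CPM in GNA11 Q209L and at or below 157 CPM in all other libraries, while Arnt and Vhl overlap between all groups.

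Because endothelial cells are rich in Epas1, it was set beside 12 endothelial markers. All 12 were detected in each library. Their sum was 1079 and 706 CPM in GNA11 Q209L, from 401 to 533 CPM in GNA11-Bap1KO and from 214 to 386 CPM in BRAF-Bap1KO. The GNA11 Q209L libraries were thus also the highest in endothelial transcript. By gene, GNA11 Q209L over GNA11-Bap1KO gave ratios from 0.843 for Egfl7 to 3.59 for Sox17, with a median of 1.88. Of the 12, Esam and Vwf were lower in every GNA11-Bap1KO library than in both GNA11 Q209L libraries, and the other 10 overlapped. Over all genes tested, 9.01% were wholly lower and 7.58% wholly higher in this way. Epas1 per endothelial CPM was 0.646 and 0.744 in GNA11 Q209L, against 0.151 to 0.298 in GNA11-Bap1KO. These quotients hold the Epas1 values that chose the gene and are a description, and the part of endothelial cells in the Epas1 difference was not tested. The BRAF-Bap1KO values ran from 0.105 to 0.451. In bulk tumours, fewer cells of a type and less RNA per cell cannot be told apart.

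**Figure D2:**
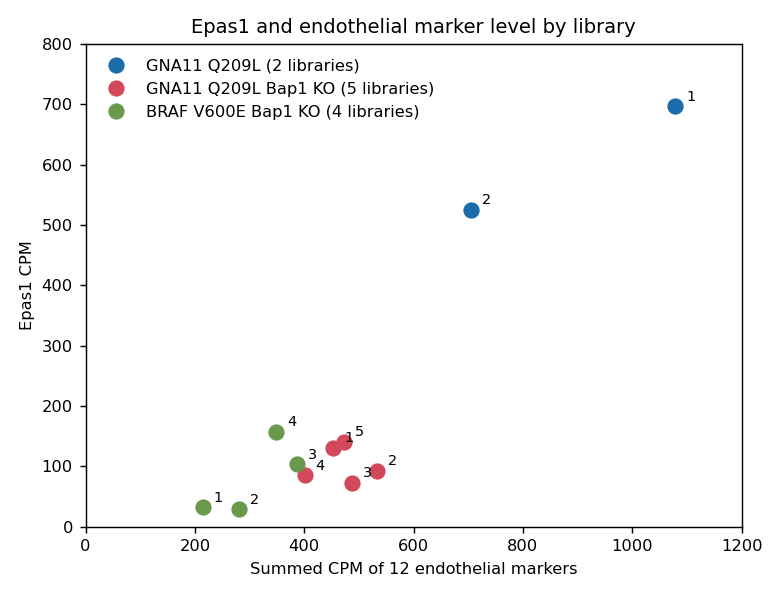
Epas1 (CPM, vertical axis) against the summed CPM of 12 endothelial markers (horizontal axis), both linear from 0, 1 dot per library with its replicate number. The 2 GNA11 Q209L libraries lie at 706 and 1079 CPM of endothelial markers and above 500 CPM of Epas1. The other 9 libraries lie at or below 533 and 157 CPM.

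Other marker sums were set beside Epas1 in the GNA11 groups as well. The 8 fibroblast markers summed to 11332 and 2876 CPM in GNA11 Q209L and to 371 to 2271 CPM in GNA11-Bap1KO. By gene, GNA11 Q209L over GNA11-Bap1KO ran from 0.968 for Fbln1 to 22.7 for Dpt. Only Dcn, Lum, Col1a2 and Col3a1 lay wholly lower in GNA11-Bap1KO. The 8 pericyte and smooth muscle markers summed to 926 to 1118 against 229 to 952 CPM. Of these means, Cspg4 made up 475 of 1022 and 413 of 655 CPM. Only Pdgfrb of the 8 lay wholly lower (120 and 167 against 33.9 to 82.1 CPM). Of all genes tested, 9.01% lay wholly lower and 7.58% wholly higher. The 8 macrophage markers summed to 822 and 6738 CPM in GNA11 Q209L, a range that included GNA11-Bap1KO (210 to 1131 CPM) in part. The sum of the 8 melanocyte markers was higher in the GNA11-Bap1KO libraries, 76453 to 100066 against 65946 and 68142 CPM. By gene, only Mitf and Oca2 lay wholly higher, and Mlana alone had a lower mean (953 against 1565 CPM). The part of the cells of these lists in the Epas1 difference was not tested. Xist, which is transcribed from the inactive X chromosome, was high in both GNA11 Q209L libraries (358 and 198 CPM) and, among GNA11-Bap1KO, only in replicate 3 (695 CPM against at most 1.42). That replicate had the lowest Epas1 of its group, 73.4 CPM. The BRAF-Bap1KO libraries had 99.8, 0.920, 1224 and 0.262 CPM of Xist. The labels give no sex, and the part of sex in the Epas1 difference was not tested.

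The genes whose log2 CPM followed Epas1 most closely over the 11 libraries, among 10347 genes of moderate or high level, were Arrb1 (Pearson r = 0.93), Gdpd1 (0.91), Nudt19 (0.91), Apba1 (0.91), Smpdl3a (0.91) and Abca3 (0.91). Arrb1 encodes beta-arrestin 1, an adaptor of G protein-coupled receptors, and Abca3 a lipid transporter. Smpdl3a, for example, had 210 and 380 CPM in GNA11 Q209L, 57.5 to 91.2 CPM in GNA11-Bap1KO and 13.1 to 101 CPM in BRAF-Bap1KO. The most opposite patterns were those of Gfra4 (r = -0.92), a receptor of the GDNF family, Slc4a11 (-0.91) and Nvl (-0.91). Gfra4 had 0.733 and 2.54 CPM in GNA11 Q209L, 3.58 to 7.86 CPM in GNA11-Bap1KO and 3.45 to 33.1 CPM in BRAF-Bap1KO. These coefficients describe libraries that share the 3 genotypes and were picked as extremes. Among the members, Hif1a had r = 0.62 with Epas1, and the 7 others ranked lay between -0.36 for Egln3 and 0.40 for Vhl. Hif3a was below the level required for ranking.

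Hif1a, the widely expressed alpha subunit, had its highest levels in the same group as Epas1, with a much smaller difference. In GNA11 Q209L it was measured at 285 and 260 CPM. In GNA11-Bap1KO the libraries had 226, 129, 142, 178 and 217 CPM, and in BRAF-Bap1KO 141, 131, 112 and 88.9 CPM. Both GNA11 Q209L libraries exceeded all 9 others, and the 2 Bap1 KO groups overlapped between 129 and 141 CPM. The mean was 1.53-fold higher in GNA11 Q209L than in GNA11-Bap1KO, without a test. Against BRAF-Bap1KO, Hif1a was higher in GNA11 Q209L by 1.20 ± 0.29 on the log2 scale (SE, adjusted p = 0.0250 by edgeR's quasi-likelihood test). This call was lost without GNA11 Q209L replicate 1 (adjusted p = 0.0892) or replicate 2 (0.149) and without both BRAF-Bap1KO libraries of unstated Bap1 genotype (0.0974), and in a fit of these 2 genotypes alone (0.0762). Between GNA11-Bap1KO and BRAF-Bap1KO the log2 difference of 0.59 ± 0.23 (SE) did not pass (adjusted p = 0.0625 by edgeR), though it did with DESeq2 (0.0345) and with edgeR without GNA11-Bap1KO replicate 2 (0.0424) or replicate 3 (0.0498). The Hif1a locus overlaps the long noncoding RNA gene Gm15283, which the table counts as well, and strand use in counting was not given in the sources used here, so their reads may not be separable.

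Per kilobase of exon, Epas1 was the more abundant alpha subunit in GNA11 Q209L, at 111 CPM per kb against 50.1 for Hif1a. In both Bap1 KO groups the order was the other way round, with 19.0 for Epas1 against 32.8 for Hif1a in GNA11-Bap1KO and 14.6 against 21.7 in BRAF-Bap1KO. In the last group single libraries differed, since Epas1 exceeded Hif1a in replicate 4 alone. These levels rest on exon lengths from GENCODE vM21, a newer annotation than the build named by the submitters.

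Hif3a, an alpha subunit several of whose isoforms restrain the other alpha subunits, was close to the limit of detection in the GNA11 tumours. The libraries had 0.576 and 0.178 CPM in GNA11 Q209L, which is 26 counts in all. In GNA11-Bap1KO only 7 counts were found over 5 libraries, 2 of which had none, and the highest level was 0.166 CPM. In BRAF-Bap1KO the libraries had 0.326, 2.25, 12.1 and 1.22 CPM, all above every GNA11-Bap1KO library. The fitted log2 difference of GNA11-Bap1KO from BRAF-Bap1KO was -6.04 ± 1.25 (SE, adjusted p = 0.0051 by edgeR). Because Hif3a was among the tested genes only through the group in which it was high, this p is given as a description. In the fit without a filter on low counts the log2 difference was -6.03 (adjusted p = 0.00569 by edgeR). The mean of 3.98 CPM in BRAF-Bap1KO rested on replicate 3. Without that library it was 1.27 CPM and the log2 difference was -4.40 (adjusted p = 0.00987 by edgeR). It was -6.69 without GNA11-Bap1KO replicate 2, which held 3 of the 7 counts of its group, and -6.67 without both libraries of unstated Bap1 genotype. Replicate 3 was also the library with the most keratinocyte marker transcript, 12663 CPM, and the part of those cells in Hif3a was not tested. The log2 difference of GNA11 Q209L from BRAF-Bap1KO was -3.36 ± 1.56 (SE) and did not pass (adjusted p = 0.144 by edgeR, 0.0437 by DESeq2). It was -1.71 without BRAF-Bap1KO replicate 3, -4.44 without GNA11 Q209L replicate 1 and -2.78 without GNA11 Q209L replicate 2.

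The beta subunits varied less. Arnt, the common partner of all alpha subunits, lay between 81.2 and 110 CPM in all 11 libraries, with means of 99.5 ± 14.8 in GNA11 Q209L (SD, n = 2), 103 ± 8.35 in GNA11-Bap1KO (SD, n = 5) and 90.9 ± 7.80 CPM in BRAF-Bap1KO (SD, n = 4). All 3 groups overlapped. The log2 difference between the Bap1 KO groups was 0.18, with a 95% interval from -0.17 to 0.53 (adjusted p = 0.373 by edgeR). Arnt2, a partner known best from neural tissue, had 21.0 and 19.5 CPM in GNA11 Q209L, just above the 5.09 to 18.1 CPM of GNA11-Bap1KO. Its BRAF-Bap1KO libraries spread from 7.83 to 40.6 CPM and overlapped both other groups. The Bap1 KO groups differed by -0.94 on the log2 scale, with a 95% interval from -2.07 to 0.20 (adjusted p = 0.162 by edgeR). Arnt was the more abundant beta subunit per kilobase in each group, with 20.6, 21.3 and 18.8 CPM per kb against 3.04, 1.86 and 3.56 for Arnt2.

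Of the 3 prolyl hydroxylases, only Egln1 passed between the Bap1 KO groups, as higher in GNA11-Bap1KO, while Egln2 and Egln3 did not pass and had opposite signs. Egln1, the main oxygen sensor of the pathway, had 143, 180, 252, 199 and 474 CPM in GNA11-Bap1KO. In BRAF-Bap1KO it had 102, 57.4, 117 and 82.7 CPM, so the groups did not overlap. The difference was 1.48 ± 0.45 on the log2 scale (SE, adjusted p = 0.0232 by edgeR). It no longer passed without BRAF-Bap1KO replicate 2 (adjusted p = 0.0595), BRAF-Bap1KO replicate 4 (0.0529), both of them (0.165) or GNA11-Bap1KO replicate 5 (0.0508). The 2 GNA11 Q209L libraries, at 113 and 371 CPM, lay further apart than the means of the Bap1 KO groups, and against BRAF-Bap1KO the log2 difference of 1.44 ± 0.53 (SE) did not pass (adjusted p = 0.0829 by edgeR), though it did with DESeq2 (0.0494). It was 2.06 without GNA11 Q209L replicate 1 and 0.34 without replicate 2.

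Egln2 had 71.0 and 136 CPM in GNA11 Q209L, 64.8 to 129 CPM in GNA11-Bap1KO and 57.9 to 76.9 CPM in BRAF-Bap1KO. The log2 difference between the Bap1 KO groups was 0.64 ± 0.26 (SE, adjusted p = 0.0725 by edgeR), and their ranges overlapped. It passed without GNA11-Bap1KO replicate 4 (0.85, adjusted p = 0.0355 by edgeR). Egln3, whose transcript is itself a well known HIF target, had 1.15 and 22.3 CPM in GNA11 Q209L and 8.58, 2.21, 27.0, 1.00 and 5.95 CPM in GNA11-Bap1KO. In BRAF-Bap1KO it had 34.5, 35.3, 80.0 and 35.5 CPM, above all 7 other libraries. The log2 difference between the Bap1 KO groups was -2.37 ± 0.95 (SE), with a 95% interval from -4.47 to -0.28, and it missed the threshold (adjusted p = 0.0653 by edgeR). It passed when GNA11-Bap1KO replicate 3, the highest of its group, was left out (log2 difference -3.30, adjusted p = 0.0246 by edgeR), and the mean of the group then fell from 8.95 to 4.43 CPM. It also passed without GNA11 Q209L replicate 1 (adjusted p = 0.0432) or replicate 2 (0.0469) and in a fit of the 2 Bap1 KO groups alone (0.0373). Per kilobase, Egln1 had the highest mean of the 3 in both GNA11 groups, with 67.4 and 69.4 CPM per kb. This order was not shared by all libraries, since Egln2 was above Egln1 per kilobase in GNA11 Q209L replicate 1 and in GNA11-Bap1KO replicates 1 and 2. In BRAF-Bap1KO the 3 lay closer together, at 24.9 for Egln1, 29.5 for Egln2 and 17.4 for Egln3.

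Vhl, the substrate receptor of the ligase, lay between 23.1 and 42.2 CPM in all 11 libraries, and all 3 groups overlapped. It was measured at 32.5 and 39.7 CPM in GNA11 Q209L, 27.8 to 42.2 CPM in GNA11-Bap1KO and 23.1 to 37.1 CPM in BRAF-Bap1KO. The log2 difference between the Bap1 KO groups was -0.02 with a 95% interval from -0.49 to 0.46 (adjusted p = 0.959 by edgeR).

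Vegfa, the endothelial growth factor that is the best known HIF target, did not separate the genotypes. In GNA11 Q209L the libraries had 23.0 and 181 CPM, the lowest and the second highest of all 11. In GNA11-Bap1KO they had 44.4, 26.7, 59.1, 90.1 and 128 CPM, and in BRAF-Bap1KO 208.8, 91.4, 51.8 and 61.6 CPM. All 3 groups overlapped. The log2 difference between the Bap1 KO groups was -0.57, with a 95% interval from -1.98 to 0.84 (adjusted p = 0.489 by edgeR). Without BRAF-Bap1KO replicate 1 it was 0.02, and the mean of that group was 68.3 in place of 103 CPM. The Pearson r of Vegfa with Epas1 over the 11 libraries was -0.29.

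Read over all 10 members, GNA11-Bap1KO lay wholly below GNA11 Q209L for Epas1, Hif1a, Hif3a and Arnt2 and wholly above it for none. Of all genes tested, 9.01% lay wholly below and 7.58% wholly above. The members were chosen on this contrast, so nothing is read from the count. With GNA11 Q209L replicate 1 or 2 left out, 7 of the 10 did not overlap, beside 38.7% and 46.9% of all genes tested. Between the 2 Bap1 KO groups, 1 of the 9 members other than Epas1 passed as higher in GNA11-Bap1KO (Egln1). Hif3a had an adjusted p under 0.05 as lower, but is not counted as support, since it was tested only through the group in which it was high. Over all genes tested, 16.5% passed as higher and 24.7% as lower. Between GNA11 Q209L and BRAF-Bap1KO, 1 of the 9 passed (Hif1a, higher), beside 9.27% of all genes passing as higher and 5.93% as lower.

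**Figure D3:**
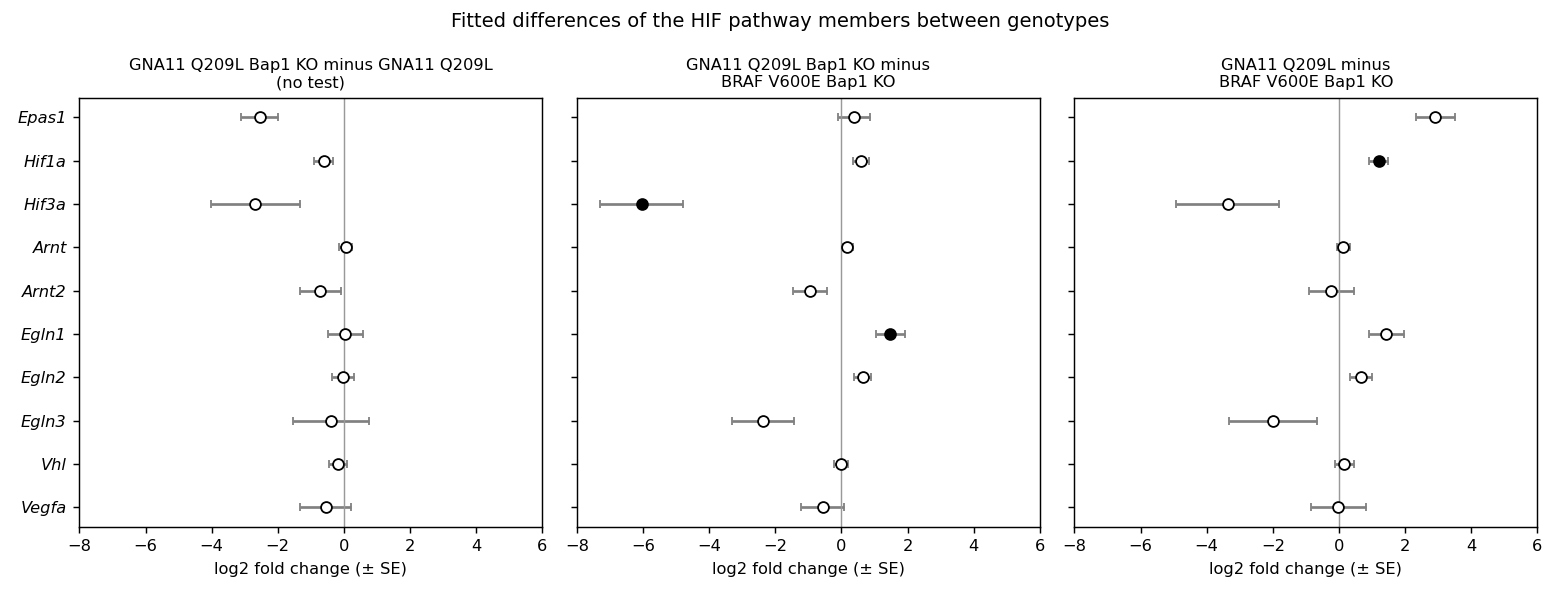
Fitted log2 fold changes of the 10 members with their standard errors (horizontal axis) for the 3 pairs of genotypes; the first pair chose the members and has no test, and Epas1 is tested in none. Filled circles mark an adjusted p under 0.05, which only Hif3a (-6.04) and Egln1 (1.48) reach between the Bap1 KO groups and only Hif1a (1.20) between GNA11 Q209L and BRAF-Bap1KO. Hif3a was among the tested genes only through its level in BRAF-Bap1KO.

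The wider pathway was described with 6 lists of HIF-related genes, 87 of which were in the table. Between GNA11-Bap1KO and BRAF-Bap1KO, 20 of the 87 were higher and 19 lower by edgeR at an adjusted p under 0.05, beside 16.5% and 24.7% of all genes tested, and the median log2 difference was -0.22 against -0.26 over all genes. The 19 include Sim2, which was among the tested genes only through its level in BRAF-Bap1KO. Without the 2 BRAF-Bap1KO libraries of unstated Bap1 genotype 23 of the 87 passed in place of 39. As for the members, melanocyte marker sums of 76453 to 100066 CPM stood against 48.8 to 188 CPM, and their part in each list was not tested.

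**Figure D4:**
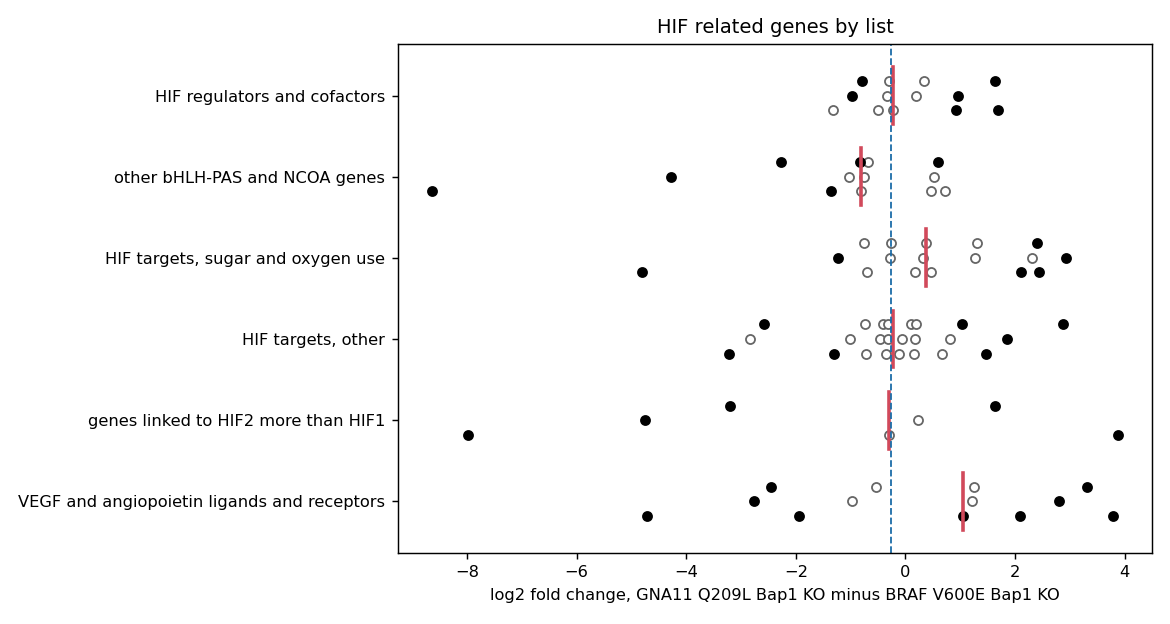
Log2 fold change of each gene of 6 HIF-related lists between GNA11-Bap1KO and BRAF-Bap1KO (horizontal axis), 1 circle per gene, filled where the adjusted p is under 0.05. Red bars are list medians and the dashed blue line is the median over all genes tested, -0.26. Genes of each list lie on both sides, with the highest list median, 1.05, among VEGF and angiopoietin ligands and receptors.

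Among 13 regulators and cofactors of HIF, 4 rose and 2 fell in GNA11-Bap1KO relative to BRAF-Bap1KO (median log2 difference -0.22). Hif1an, the asparaginyl hydroxylase that blocks recruitment of coactivators, averaged 136 against 72.2 CPM (log2 difference 0.92 ± 0.23, adjusted p = 0.0114 by edgeR). Os9, an endoplasmic reticulum lectin, averaged 458 against 147 CPM (1.64 ± 0.26, adjusted p = 0.00164). Tceb2, which encodes elongin B of the Vhl complex, averaged 72.3 against 37.4 CPM (0.95 ± 0.26, adjusted p = 0.0149). Usp20, a deubiquitinase, was lower at 13.3 against 26.4 CPM (-0.98 ± 0.25, adjusted p = 0.0126). The call of Tceb2 was lost without both libraries of unstated Bap1 genotype (adjusted p = 0.107). Between the GNA11 groups, Hif1an lay wholly higher in GNA11-Bap1KO (105 to 167 against 88.2 and 102 CPM). Usp20 (9.76 to 16.9 against 17.7 and 25.1 CPM) and Cited2 (9.95 to 47.3 against 76.6 and 114 CPM) lay wholly lower. Thus 1 of the 13 lay wholly above and 2 wholly below, beside 7.58% and 9.01% of all genes tested.

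Of 13 relatives of the HIF subunits and of their NCOA coactivators, 1 rose and 5 fell (median -0.81). The 5 include Sim2, which is not counted as support, since it was tested only through the group in which it was high. Sim2, a neural and muscle regulator that pairs with Arnt, had no count in any GNA11-Bap1KO library. In BRAF-Bap1KO it had 1.39, 0.0341, 2.26 and 2.32 CPM. Replicate 2 there held only 1 count, below the 0.0523 and 0.0892 CPM of GNA11 Q209L. The mean of BRAF-Bap1KO was at least 75.6-fold higher than 3 counts pooled over GNA11-Bap1KO. Arntl2, a circadian clock gene, averaged 4.16 against 80.4 CPM (log2 difference -4.27 ± 0.62, adjusted p = 0.00108 by edgeR). Clock, its partner, averaged 40.6 against 72.3 CPM (-0.83, adjusted p = 0.0272), and the coactivator Ncoa2 106 against 70.1 CPM (0.59, adjusted p = 0.0302). The last 2 calls were weak. That of Clock was lost without BRAF-Bap1KO replicate 2 (adjusted p = 0.0547) or 3 (0.0617), GNA11-Bap1KO replicate 5 (0.0553), or both libraries of unstated Bap1 genotype (0.0717). That of Ncoa2 was lost without BRAF-Bap1KO replicate 1 (0.0664), 2 (0.0714) or 3 (0.0520), GNA11-Bap1KO replicate 1 (0.0614), or both such libraries (0.0907).

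Of 17 HIF targets of sugar and oxygen use, 4 rose and 2 fell (median 0.37). The 3 named risers are enzymes of glycolysis. Hk1, which phosphorylates glucose, averaged 790 against 146 CPM (log2 difference 2.43 ± 0.59, adjusted p = 0.00964 by edgeR). Pfkl, the liver form of phosphofructokinase, averaged 648 against 85.1 CPM (2.93 ± 0.73, adjusted p = 0.0112). Aldoa, an aldolase, averaged 3406 against 649 CPM (2.39 ± 0.58, adjusted p = 0.0100). All 3 overlapped between the GNA11 groups. None of the 3 passed without both libraries of unstated Bap1 genotype (adjusted p = 0.0781, 0.0799 and 0.0537). BRAF-Bap1KO replicate 1 held the most Pfkl of its group, and without it the log2 difference of Pfkl was 3.97. Car12, a membrane carbonic anhydrase, was lower, with 2.01 against 56.8 CPM (-4.81 ± 0.97, adjusted p = 0.00448), and without GNA11-Bap1KO replicate 1 the difference was -5.64. None of the 17 genes separated the 2 GNA11 groups, beside 16.6% of all genes tested that did.

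Of 24 other HIF targets, 4 rose and 3 fell (median -0.22). Plod1, a collagen lysyl hydroxylase, averaged 1161 against 158 CPM (log2 difference 2.88 ± 0.52, adjusted p = 0.00284 by edgeR), and Insig2, a regulator of sterol synthesis, 186 against 51.3 CPM (1.86 ± 0.41, adjusted p = 0.00647). Ddit4, an inhibitor of mTOR signalling, averaged 20.5 against 123 CPM (-2.58 ± 0.44, adjusted p = 0.00219). BRAF-Bap1KO replicate 2 had most Ddit4, 261 CPM, and the difference without it was -1.91. Insig2 was highest in BRAF-Bap1KO replicate 4, and without it the difference was 2.45. Lox, which cross-links collagen and is made mostly by fibroblasts, had 1.57 to 22.9 against 54.2 to 153 CPM (-3.22 ± 0.79, adjusted p = 0.0102). In GNA11 Q209L it had 99.4 and 35.9 CPM, above all GNA11-Bap1KO libraries. Fibroblast marker sums were ordered in the same way, 2876 CPM and above in GNA11 Q209L and BRAF-Bap1KO and 371 to 2271 CPM in GNA11-Bap1KO. Their part in Lox was not tested. Hmox1 of this list also lay wholly lower in GNA11-Bap1KO than in GNA11 Q209L (27.0 to 167 against 188 and 194 CPM). Thus 0 of the 24 lay wholly above and 2 wholly below, beside 7.58% and 9.01% of all genes tested.

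Of 7 genes linked to HIF2A more than to HIF1A, 2 rose and 3 fell (median -0.30), so the list split in direction. Slc11a2, an iron importer, had 553, 1339, 471, 354 and 520 CPM in GNA11-Bap1KO and 33.0 to 59.4 CPM in BRAF-Bap1KO (log2 difference 3.88 ± 0.45, adjusted p = 0.000382 by edgeR). It was also wholly above the 228 and 336 CPM of GNA11 Q209L. Sod2 of the same list lay wholly below GNA11 Q209L, at 45.0 to 103 against 106 and 108 CPM. Thus 1 of the 7 lay wholly above and 1 wholly below, beside 7.58% and 9.01% of all genes tested. The median log2 difference of the 7 between the GNA11 groups was -0.45, without a test. Over the 6 lists this median ran from -0.61 (VEGF and angiopoietin genes) to -0.05 (regulators and cofactors). It was -0.36 over all 87 list genes and -0.004 over all genes tested. Ccnd1, a cyclin of the G1 phase, averaged 1713 against 550 CPM (1.64 ± 0.49, adjusted p = 0.0228), and did not pass without both libraries of unstated Bap1 genotype (0.123). The growth factor Tgfa averaged 0.602 against 16.0 CPM (-4.75 ± 1.08, adjusted p = 0.00758). BRAF-Bap1KO replicate 4 held 48.7 CPM of Tgfa, and the difference was -3.12 without it and -5.67 without GNA11-Bap1KO replicate 1. The iron exporter Slc40a1 averaged 5.25 against 48.1 CPM (-3.20 ± 0.97, adjusted p = 0.0244). That call rested on BRAF-Bap1KO replicate 4, with 143 CPM against 15.0 to 19.2 in the others, and failed without it (-1.67, adjusted p = 0.121), without both libraries of unstated Bap1 genotype (0.238) and without GNA11-Bap1KO replicate 2 (0.0550).

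The 13 VEGF and angiopoietin ligands and receptors included 5 that rose and 4 that fell, with a median of 1.05. Vegfb, a ligand of the receptor Flt1, had 198, 318, 191, 201 and 343 CPM in GNA11-Bap1KO and 17.1, 16.7, 12.4 and 25.9 CPM in BRAF-Bap1KO. It rose by 3.79 ± 0.32 on the log2 scale (SE, adjusted p = 9.1e-05 by edgeR). In GNA11 Q209L it had 263 and 294 CPM, within the range of GNA11-Bap1KO. Pgf, the placental growth factor, which also binds Flt1, followed the same order, with means of 178 against 17.9 CPM (3.32 ± 0.69, adjusted p = 0.00506) and 43.8 and 455 CPM in GNA11 Q209L. Figf, which encodes the lymphatic growth factor VEGF-D, was lower, 0.743 against 19.2 CPM (-4.71 ± 0.91, adjusted p = 0.00382), and without GNA11-Bap1KO replicate 2 the difference was -5.32. Angpt1, an activator of the Tie receptor Tek, averaged 0.768 against 5.25 CPM (-2.77 ± 0.53, adjusted p = 0.00371 by edgeR). Between the GNA11 groups, Figf was also wholly below the 9.37 and 2.32 CPM of GNA11 Q209L. Nrp2 lay wholly lower as well (16.9 to 49.7 against 155 and 221 CPM). Angpt2 lay wholly higher in GNA11-Bap1KO (48.7 to 185 against 40.2 and 48.4 CPM). Thus 1 of the 13 lay wholly above and 2 wholly below, beside 7.58% and 9.01% of all genes tested.

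**Figure D5:**
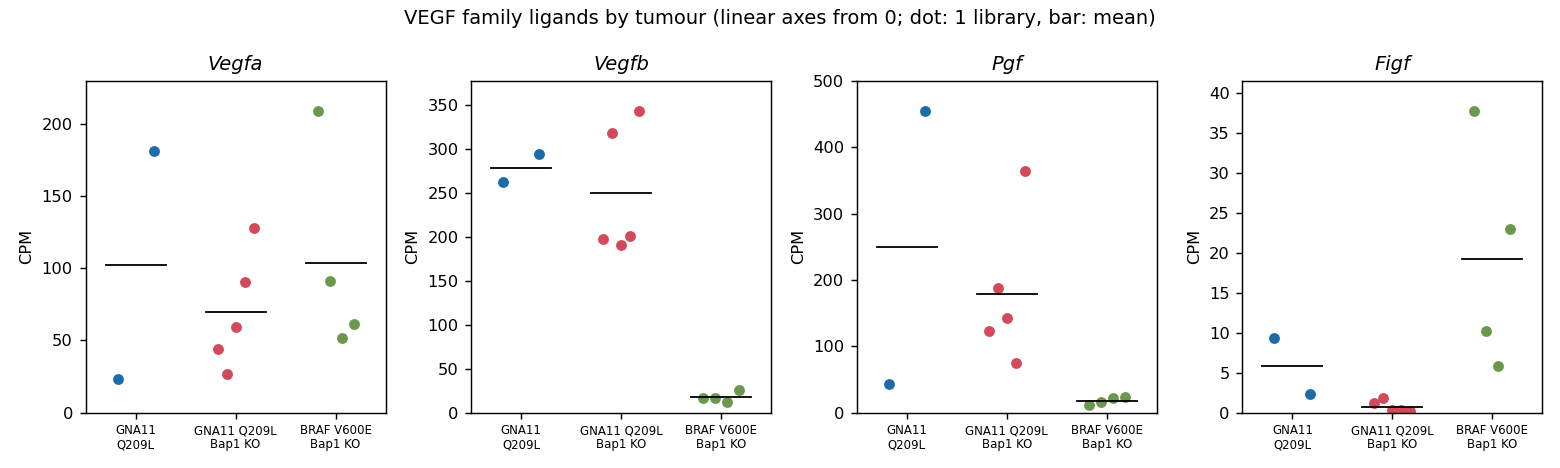
CPM of Vegfa, Vegfb, Pgf and Figf in every library by genotype, on linear axes that start at 0; dots are libraries and bars group means. Vegfb lies between 191 and 343 CPM in all 7 GNA11 Q209L libraries with or without Bap1 and at or below 25.9 CPM in BRAF-Bap1KO, while Vegfa overlaps between all 3 groups.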

How the data were processed

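Total RNA of 11 skin tumours was sequenced. The authors deposited 1 table of estimated counts per gene, without normalisation. Per the submitters' processing notes, reads were aligned with STAR to mm9. The version, counting program, annotation and strand setting were not given in the sources used here. Gene values were whole numbers, so rounding changed nothing. Of 18769 lines, 7 repeats and 6 transgene sequences were set aside, leaving 18756 genes, named by the table's own symbols.

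Replicates are numbered in the order of their records. Genotypes were compared with edgeR 4.0.16 in R 4.3.3 (TMM scaling, filterByExpr, quasi-likelihood test over all 11 libraries), with Benjamini-Hochberg adjusted p-values over 17350 genes and a threshold of 0.05. The fit was also run on simulated counts with the same spread for every gene, which checks the code and not the calls reported here. Alternatives were DESeq2 1.42.0, its size factors in edgeR, no filter, fits of the 2 genotypes compared alone, leaving out each library, and summing GNA11-Bap1KO replicates 1 and 2. Leaving out both libraries of unstated Bap1 genotype was added after the data were seen, as were all alternatives for members whose groups do not overlap. Intervals cover 95%. Counting floors cover counting error only.

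The members and gene lists were chosen with earlier results of these data known. Named are all 10 members, up to 4 genes per pathway list with the smallest p between the Bap1 KO groups among those called and not overlapping, and the 6 genes most like and 3 most opposite to Epas1 by Pearson r of log2 CPM (prior count 2, average log2 CPM of at least 2). Wholly below or above means that the groups' CPM ranges do not overlap. Marker sums for adipocyte (82.3 to 635 CPM), T and NK cell (1.03 to 111), skeletal muscle (16.6 to 6144) and red blood cell (15.7 to 606) lists were also computed. Promoter windows were read from RefSeq tables on GRCm38.p6, and no position on mm9 is given.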

Additional observations from a re-analysis of the deposited data

Results flagged for a closer look

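Among 67 groups of 4 or 5 libraries examined for the members and named genes, 9 held a library far from the others relative to the group's range, where chance flags about 1 in 20. In BRAF-Bap1KO replicate 3, Hif3a stood at 12.1 CPM (others 0.326 to 2.25) and Egln3 at 80.0 CPM (others 34.5 to 35.5). In GNA11-Bap1KO replicate 5, Vhl stood at 42.2 CPM (others 27.8 to 31.6). BRAF-Bap1KO replicate 4, the library rich in salivary gland markers, was low in Tceb2 at 29.1 CPM (others 39.8 to 40.5) and high in Insig2 at 104 CPM (others 29.9 to 36.5) and Slc40a1 at 143 CPM (others 15.0 to 19.2). Plod1 stood at 313 CPM in BRAF-Bap1KO replicate 1 (others 93.1 to 123). Slc11a2 stood at 1339 CPM in GNA11-Bap1KO replicate 2 (others 354 to 553), and Tgfa at 1.74 CPM in GNA11-Bap1KO replicate 1 (others 0.156 to 0.541).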

How the results depend on the processing

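No paired analysis was possible because the labels give the genotypes no shared replicate numbers. Dropping both BRAF-Bap1KO libraries of unstated Bap1 genotype gave 1 called member in place of 2 between the Bap1 KO groups. The 1 left was Hif3a, which is not counted as support, and the call of Egln1 was lost. The same drop gave 23 list genes in place of 39 and 3571 genes in place of 7146. Between GNA11 Q209L and BRAF-Bap1KO it gave 0 members and 838 genes, in place of 1 and 2637. That last comparison gave 3 members and 5383 genes with DESeq2, and 0 members and 417 genes in a fit of these 2 genotypes alone. Leaving out single libraries gave 1 to 4 members, Hif3a included, and 5448 to 7176 genes between the Bap1 KO groups. It gave 0 to 1 members and 265 to 2867 genes between GNA11 Q209L and BRAF-Bap1KO, and 4 to 7 members that did not overlap between the GNA11 groups, beside 18.8% to 46.9% of all genes. Summing GNA11-Bap1KO replicates 1 and 2, which share an identifier, left 2 members called between the Bap1 KO groups, Hif3a included. It gave 31 list genes in place of 39 and 6133 genes in place of 7146. The causes were not tested.

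Small differences changed sign. The log2 difference of Vhl between the Bap1 KO groups was 0.0756 without both libraries of unstated genotype, 0.0914 with the replicates of shared identifier summed, and -0.15 to 0.0757 without single libraries. That of Vegfa between GNA11 Q209L and BRAF-Bap1KO, -0.02, was 0.00893 with DESeq2, 0.0115 with its size factors in edgeR, 0.11 with these 2 genotypes alone, 0.10 with those replicates summed, and -2.18 to 0.81 without single libraries. Without single libraries, Vegfa between the Bap1 KO groups ran from -0.89 to 0.0245. In GNA11 Q209L against BRAF-Bap1KO, Arnt ran from -0.0279 to 0.28 and Arnt2 from -0.53 to 0.16.

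The 2 GNA11 Q209L libraries limit every value that rests on them. Hif3a and Sim2 are limited by counts in the GNA11 groups. Scaling moved the median of all genes by under 0.1 on the log2 scale.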
